A study of Mus musculus with 6 samples.

Results

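Open chromatin was compared among 3 organoid lines grown from mouse colon tumours. Attention was on the 41 of 43020 peaks that were far more open in 1 of these lines than in either of the others. ATAC-seq, the assay used, cuts and tags accessible DNA with the Tn5 transposase, so that the reads over a peak rise with its accessibility. The 41 peaks were chosen by their values in the tumour-derived libraries alone. With CPM as counts per 1000000 counts in the column, the high line had at least 10 CPM and at least 4 times the sum of the next line's CPM and 1. Of these peaks 19 were high in line 1 (primary tumour replicate 1), 14 in line 2 and 8 in line 3. The naive libraries took no part in the choice, nor did the positions of the peaks or the values of neighbouring peaks.

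All 6 libraries came from colon cancer organoids whose genotype is labelled AKP. The 3 naive libraries were from the organoids before transplantation, with no recipient mouse. The 3 primary tumour libraries were from organoids placed in the colon of immunocompetent C57Bl6 mice by colonoscopy, regrown from the tumours, and kept in culture until no other cells remained. Primary tumour replicates 1, 2 and 3, titled ATAC_1010_Primary, ATAC_1026_Primary and ATAC_1027_Primary, are called lines 1, 2 and 3. No label says whether the naive replicates were separate cultures, and the sources used here do not give the age of the mice. Each line is 1 library, so a difference between lines and a difference between libraries cannot be told apart, and no test between lines was possible.

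Enhancers and promoters are accessible where transcription factors displace nucleosomes, and the set of open enhancers differs more between cell states than the set of open promoters. Opening of an enhancer that is closed in related cells is commonly seen when cells change state. The peaks are given by position in the mouse build mm9, as named in the submitters' processing notes. No mm9 genome or annotation was used here, so genes, exons and sequence at the peaks are not given, and the colon epithelial identity of the libraries was not checked against marker genes.

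Total counts were between 1916819 and 3594735 in the tumour-derived libraries and between 1185356 and 5987545 in the naive libraries. The level of 10 CPM meant 35.9 reads in line 1, 19.2 in line 2 and 20.5 in line 3. The high line had between 20 and 292 reads in the 41 peaks, and the next line between 2 and 38. Exact 95% Poisson intervals of the high and the next line, which cover counting error only, were separate in all 41, as the choice of the peaks makes likely.

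Strong differences of this kind were rare. Of 30028 peaks with at least 10 CPM in a line, 4919 were at least 1.5 times the next line plus 1, 1271 at least 2 times, 181 at least 3 times, 41 at least 4 times, 8 at least 5 times and 1 at least 6 times. The numbers of peaks in which a line was the highest at this level were similar, with 10529 in line 1, 9464 in line 2 and 10035 in line 3. The order of the lines depended on the limit. Lines 1, 2 and 3 held 1831, 1419 and 1669 peaks at 1.5 times, 499, 342 and 430 at 2 times, and 74, 57 and 50 at 3 times, so line 3 was above line 2 at the lower limits and below it from 3 times to 4 times. It also depended on the scaling. The lines held 24, 15 and 4 peaks with TMM-scaled CPM in the rule, 17, 19 and 7 with CPM divided by the chromosome median, and 4, 4 and 1 with 2 CPM added in place of 1.

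The same rule applied to the naive libraries gave 14 peaks high in 1 library alone, against 41 in the tumour-derived libraries. Naive replicate 1, the shallowest library, held 11 of the 14, replicate 3 held 3 and replicate 2, the deepest, held 0. With all 6 libraries thinned to the total of naive replicate 1, the rule found 97 peaks in the tumour-derived libraries and 40 in the naive libraries, so both numbers rose at lower depth and the tumour-derived number stayed higher. Thinning the tumour-derived libraries alone to the shallowest of them left 41 peaks, of which 28 were the same peaks.

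The mirrored rule, for peaks at least 10 CPM in 2 lines and at least 4 times the remaining line plus 1, found 98 peaks. Line 1 was the low line in 70 of them, line 2 in 24 and line 3 in 4. Line 1 was the deepest of the 3 libraries. With the lines thinned to the total of the shallowest of them, the peaks high in 1 line alone were 20, 14 and 7 in lines 1, 2 and 3. The split of the low peaks by line was not recomputed at that total. Of the 70, chromosome 5 held 16, chromosome 4 held 8 and chromosome 3 held 7, with 6.29%, 6.61% and 5.67% of all peaks. Chromosome medians of a line against naive were taken in log2(CPM + 1) over peaks with a naive mean of at least 5 CPM. They are given relative to the genome-wide median of the same line. For line 1 they were -0.34, -0.21 and 0.09 on chromosomes 5, 4 and 3. Chromosomes 10, 1 and 9, with medians of -0.17, -0.15 and -0.10, held 4, 2 and 6. Of the 24 low peaks of line 2, chromosome 13 (4.77% of all peaks) held 5, where its median was -0.71. Chromosome 1 (6.79%) held 4, where its median was 0.03. The part of these chromosome levels in the low peaks was not tested. On the naive libraries the mirrored rule gave 38 peaks. With all 6 libraries thinned to the total of naive replicate 1 it gave 237 in the tumour-derived and 202 in the naive libraries.

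**Figure D1:**
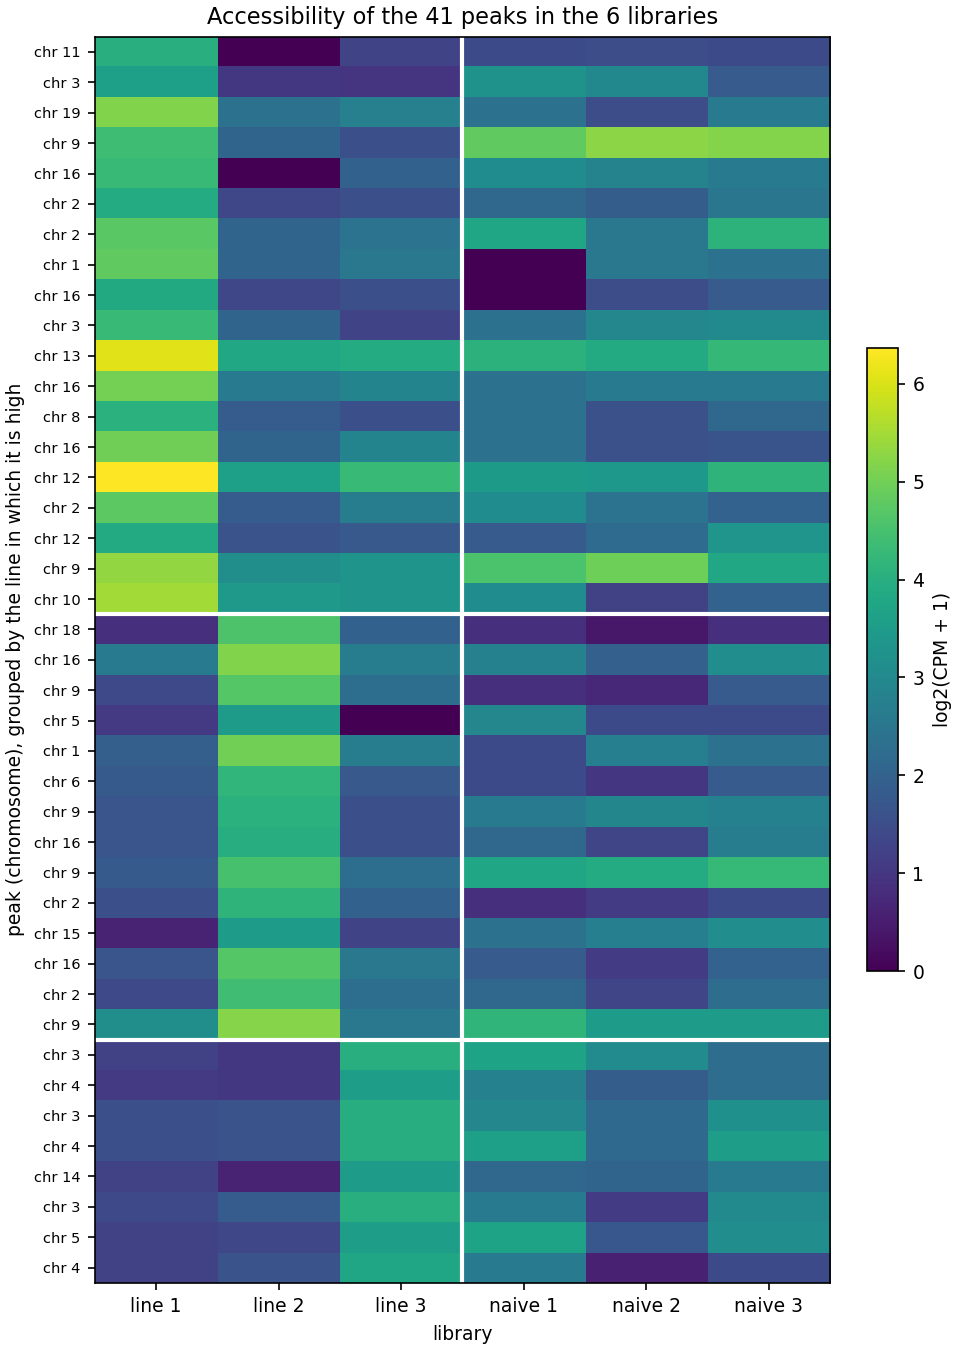
Heat map of log2(CPM + 1) for the 41 peaks (rows, labelled by chromosome) in the 3 tumour-derived lines and the 3 naive libraries (columns), with white lines between the sets of 19, 14 and 8 peaks. The bright block on the left steps from line 1 to line 2 to line 3 because the peaks were chosen that way, and the naive columns range from dark to bright.

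The peaks of line 1 were the strongest of the 41, with a median of 25.6 CPM in that line and a range of 11.1 to 81.2 CPM. Its largest ratio was found on chromosome 11 from 111944458 to 111944818, a peak of 360 bp. It had 14.7 CPM in line 1, 0 in line 2 and 1.46 in line 3, and the naive replicates had 1.69, 1.84 and 1.70 CPM. These values rest on 53, 0 and 3 reads in the lines and on 2, 11 and 4 reads in naive organoids. All 5 other libraries were low there, and line 1 alone was open.

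A peak of chromosome 19 spanning 30199277 to 30200387 had 34.5 CPM in line 1 (95% Poisson interval 28.7 to 41.1), 4.17 in line 2 and 5.84 in line 3. The naive replicates had 4.22, 1.84 and 5.11 CPM, a range that holds line 2 and ends below line 3. The widest peak of the set lay on chromosome 10 from 85813319 to 85814673 and had 43.7 CPM in line 1, 9.91 in line 2 and 8.77 in line 3. Naive replicates had 7.59, 1.34 and 2.98 CPM there, all below all 3 lines. Of the peaks with at least 30 CPM in line 1, naive organoids were lowest at 52333754 to 52334563 of chromosome 16, with 30.6, 3.13 and 6.33 CPM in lines 1, 2 and 3 and 4.22, 2.00 and 2.13 CPM in naive replicates 1, 2 and 3.

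A pair of peaks on chromosome 9 showed the opposite arrangement, open in line 1 and in naive organoids. From 96493034 to 96493660, line 1 had 20.03 CPM, line 2 had 3.13 and line 3 had 1.95. The naive replicates had 27.0, 37.2 and 35.3 CPM, a mean of 33.2 ± 5.45 CPM (SD, n = 3). Every naive library was above line 1 and far above both other lines. From 37015510 to 37016107, line 1 had 39.2 CPM against 7.83 and 8.77 in lines 2 and 3, and naive organoids had 22.8, 29.9 and 13.2 CPM. At this peak naive organoids lay between line 1 and the other lines. A weaker peak on chromosome 3 from 59934889 to 59935387 had 11.1 CPM in line 1, 1.04 in line 2 and 0.974 in line 3, with 8.44, 6.85 and 2.55 CPM in naive organoids.

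The highest counts of the 41 stood on chromosomes 12 and 13, outside the rule for named peaks and picked after their values were seen. From 8562170 to 8563466 on chromosome 12, line 1 had 81.2 CPM from 292 reads, line 2 had 10.96 and line 3 had 18.5. The naive replicates had 10.1, 9.52 and 16.6 CPM. From 49491804 to 49492569 on chromosome 13 the lines had 66.5, 13.0 and 14.1 CPM and the naive replicates 16.0, 13.7 and 17.9 CPM. These sites had at least 9.52 CPM in every library and were highest in line 1. On chromosome 13, where line 2 was low as a whole, dividing by the chromosome medians lowered the ratio of that peak from 4.40 to 3.07, which took it out of the set. The other 10 peaks of line 1 had 13.6 to 32.0 CPM in that line and naive means of 1.46 to 11.2 CPM.

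The 14 peaks of line 2 had a median of 21.1 CPM in that line and a maximum of 36.0 CPM. The clearest was a peak of 423 bp on chromosome 18 from 30355528 to 30355951. It had 23.0 CPM in line 2, 0.835 in line 1 and 2.92 in line 3, and naive organoids had 0.844, 0.334 and 0.851 CPM. The naive values rest on 1, 2 and 2 reads against 44 in line 2, and their mean of 0.676 CPM was the lowest of the 41 peaks. Chromosome 9 held the next of those named, spanning 87828134 to 87828525, with 24.5 CPM in line 2, 1.67 in line 1, 3.90 in line 3 and 0.844, 0.668 and 2.55 CPM in naive organoids.

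Stronger sites with some naive signal were found on chromosomes 16 and 1. From 12742649 to 12743525 on chromosome 16, line 2 had 35.0 CPM (interval 27.1 to 44.4), line 1 had 5.01 and line 3 had 5.36. The naive replicates had 5.91, 2.84 and 7.66 CPM, a range that holds both other lines. From 175696938 to 175697838 on chromosome 1 the values were 31.3 CPM in line 2, 2.78 in line 1, 5.36 in line 3 and 1.69, 5.68 and 4.25 in naive organoids. A weak peak of 290 bp on chromosome 5 from 103687112 to 103687402 had 10.4 CPM from 20 reads in line 2, 1.11 in line 1, 0 in line 3 and 6.75, 1.67 and 1.70 CPM in naive organoids. Its naive replicates were spread over a wide range, so its naive state is uncertain. The 6 peaks of line 2 on chromosomes 2, 6, 15 and 16 that are not named had 10.4 to 24.5 CPM in that line and naive means of 1.24 to 5.85 CPM.

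The 8 peaks of line 3 were weaker, with 10.2 to 15.1 CPM and 21 to 31 reads in that line. The largest ratio of all 41 peaks belonged to a peak of chromosome 3 spanning 34219423 to 34219919, with 15.1 CPM in line 3 (interval 10.3 to 21.4), 1.39 in line 1 and 1.04 in line 2. Naive organoids had 11.8, 7.35 and 3.83 CPM there, every one above lines 1 and 2 and below line 3. On chromosome 4 from 8588350 to 8588948 line 3 had 14.6 CPM, lines 1 and 2 had 1.95 and 2.09, and the naive replicates had 10.97, 3.51 and 10.6 CPM. The naive libraries again lay between.

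Others of line 3 on the same chromosomes had less naive signal. From 39721384 to 39721681 on chromosome 4 the values were 10.7 CPM in line 3, 1.11 in line 1, 1.04 in line 2 and 5.91, 2.67 and 3.83 in naive organoids. From 30768977 to 30769552 on chromosome 3 they were 14.6, 1.95 and 2.09 in lines 3, 1 and 2, and 6.75, 3.51 and 8.08 in naive organoids. The lowest naive mean of the 8 was 2.42 CPM on chromosome 4 from 59423380 to 59423725, picked after its value was seen, where line 3 had 12.7 CPM. On chromosome 5, from 101190207 to 101190744, line 3 had 10.7 CPM, lines 1 and 2 had 1.39 and 1.57, and naive organoids had 11.8, 2.34 and 7.66 CPM, so 1 naive library was above line 3. The remaining peaks, on chromosomes 3 and 14, had 15.1 and 10.2 CPM in line 3 and naive means of 4.49 and 3.88 CPM.

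The naive level, which the rule did not use, was low at most of the 41 peaks. The median of the naive mean was 4.49 CPM, against 11.6 CPM over all 43020 peaks. By line it was 4.97 CPM for line 1, 3.42 for line 2 and 5.30 for line 3. In naive replicates 1, 2 and 3 the median over the 41 peaks was 5.06, 3.17 and 5.11 CPM, and these medians had an SD of 1.10. This SD is a spread between libraries over the same peaks. The sets of the 3 lines hold different peaks, so it does not measure the error of the difference between them, which was not tested. Naive organoids had at least 10 CPM at 7 of the 41 peaks (17.1%), 5 of line 1 and 2 of line 2, against 54.5% of all peaks and 74.1% of the peaks with at least 10 CPM in a line. They had at most 2 CPM at 6 peaks (14.6%), 2 of line 1 and 4 of line 2, against 5.19% of all peaks and 0.936% of the peaks with at least 10 CPM in a line. The rule holds 2 lines low relative to the high line, and neither background is held to this. Over the 41 peaks the medians of lines 1, 2 and 3 were 5.01, 3.13 and 4.87 CPM, against 12.2, 12.5 and 13.6 CPM over all peaks. The low naive level is therefore a description, and its gap to the backgrounds was not tested.

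The naive level was also set against the high line of each peak. The naive mean was at most 25% of the high line at 11 of 19 peaks of line 1, 9 of 14 of line 2 and 1 of 8 of line 3. It was at least 50% of it at 3, 2 and 3 peaks, and between these limits at 5, 3 and 4 peaks. Among all peaks of at least 10 CPM in which a line was the highest, naive was at most 25% at 5.89% for line 1, 10.5% for line 2 and 3.9% for line 3, and at least 50% at 77.5%, 68.7% and 77.7%. The high line's value enters both this ratio and the rule, so the gap between members and background is a description and nothing is read from it. All 3 naive libraries were below the high line at 39 of the 41 peaks. At 20 peaks all 3 were above both other lines, 9 of line 1, 5 of line 2 and 6 of line 3. The rule sets 1 line high and the others low, which enters both numbers. No share over all peaks is given beside them, so nothing is read from them. The number with naive at 50% or more rested on single libraries. It was 8 with all naive libraries and 4 without naive replicate 1.

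**Figure D2:**
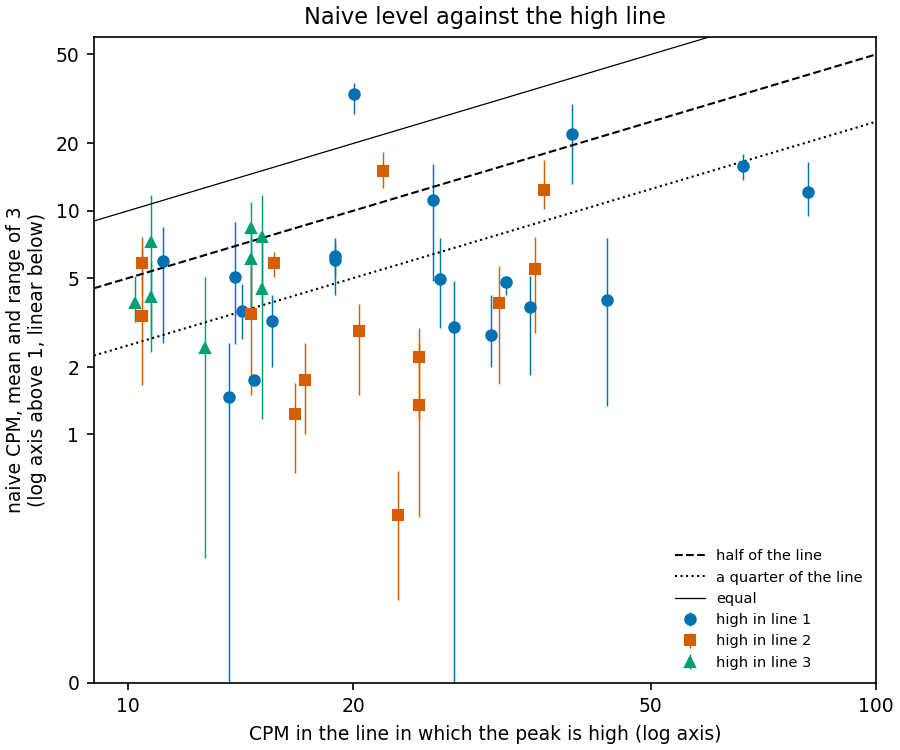
Naive CPM (mean of 3 libraries, bars from the lowest to the highest) against the CPM of the line in which each of the 41 peaks is high, both on log axes, with the vertical axis linear below 1. Of the points, 21 lie at or below the dotted limit of 25% of the line, 8 at or above the dashed limit of 50%, and 1 peak of line 1 lies above equality.

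All primary tumour libraries were then tested against all naive libraries. Because the rule used the primary tumour libraries, the calls at the members are a description. Of the 41 peaks, 24 had enough reads to be tested by edgeR's quasi-likelihood test and 17 did not. At an adjusted p under 0.05, 2 of the 24 were called higher and 1 lower in tumour-derived lines, where 8.0% of all 36179 tested peaks were higher and 6.4% lower. With no filter all 41 were tested and 8 were called, and in that fit 5245 of the 43020 peaks were called, 3029 higher and 2216 lower. The median log2 fold change was 0.33 over the 24 members and -0.01 over all tested peaks. The peaks called higher were those already given on chromosome 10 (log2 fold change 2.72, adjusted p = 0.0133) and chromosome 19 (2.14, adjusted p = 0.0499). The peak called lower was the one at 96493034 on chromosome 9 (log2 fold change -1.90, adjusted p = 0.0454), which naive organoids and line 1 shared. None of the 3 calls was kept without naive replicate 2 or without naive replicate 3, although the log2 fold changes were then 2.14 and 2.64 on chromosome 10, 1.71 and 2.49 on chromosome 19, and -1.77 and -1.93 on chromosome 9. The chromosome 19 call was also lost with total-count scaling (adjusted p = 0.0551, edgeR), with the replicate block (1.41, adjusted p = 0.164) and without naive replicate 1 (adjusted p = 0.0969). The chromosome 9 call was also lost by DESeq2 (adjusted p = 0.173), without primary tumour replicates 2 or 3 (adjusted p = 0.141 and 0.0504, edgeR) and without naive replicate 1 (adjusted p = 0.0578). Without primary tumour replicate 1, which holds these peaks high, the chromosome 9 value was -3.78 (adjusted p = 3.05e-08) and the calls on chromosomes 10 and 19 were lost (adjusted p = 0.147 and 0.754, edgeR).

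The 41 peaks were spread over 17 of 21 chromosomes. Chromosome 16 held 7 of them (17.1%, against 3.77% of all peaks), chromosome 9 held 6 (14.6% against 5.67%), and chromosomes 2 and 3 held 5 each (12.2% against 7.12% and 5.67%). Line 1 had 4 on chromosome 16 and 3 on chromosome 2. Line 2 had 4 on chromosome 9 and 3 on chromosome 16. Line 3 had 3 on chromosome 3 and 3 on chromosome 4. No peak of line 3 lay on chromosomes 9 or 16, and with 8 peaks in all its spread over chromosomes is poorly known. Chromosomes 7, 17, X and Y held 0.

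**Figure D3:**
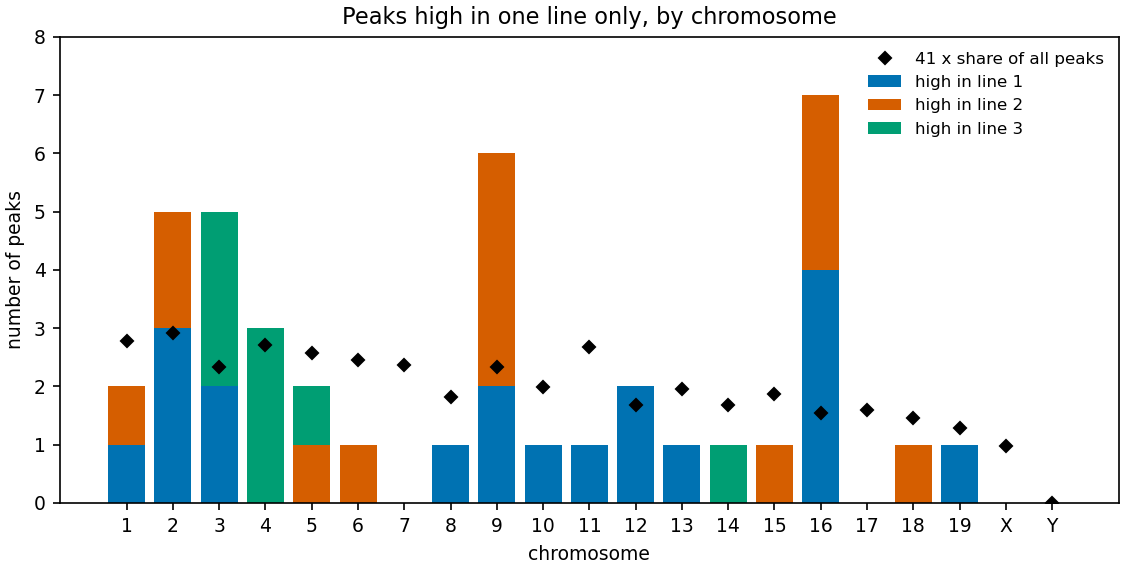
Number of peaks high in 1 line alone on each chromosome, stacked by line, with diamonds at 41 times the share of all 43020 peaks on that chromosome. The bars of chromosomes 16 and 9 reach 7 and 6, and those of chromosomes 7, 17, X and Y are empty.

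The surroundings of the peaks were compared as well. Within 5 Mb on either side of a peak, each line was compared with naive over peaks with a naive mean of at least 5 CPM. The median difference in log2(CPM + 1) was taken, relative to the genome-wide median difference of the same line. The chromosome medians are on the same scale. The high line had the highest of the 3 medians at 21 of 41 peaks, and its excess over the next line was between -0.35 and 0.34 with a median of 0.02. No share over all peaks is given beside this number, so nothing is read from it. On chromosome 16, line 1 had a median of 0.18 over the chromosome against 0.05 and 0.03 in lines 2 and 3. The part of these levels in the members was not tested. After each line was divided by its chromosome medians the rule gave 43 peaks, of which 37 were the same peaks.

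The spacing of the members is given without a background of equally many peaks, so it is a description. The smallest gap between peaks of the same line was 81.4 kb, so at the limit of 50 kb there were 0 runs of 3 or more. Of 37 windows of 10 Mb that held a member, 3 held more than 1. The window from 20 to 30 Mb on chromosome 9 held 3 peaks of line 2 among 163 peaks, that from 30 to 40 Mb on chromosome 3 held 2 of line 3 among 186, and that from 100 to 110 Mb on chromosome 5 held 1 of line 2 and 1 of line 3 among 236.

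The peaks next to the members, which the rule did not use, were highest in the same line in more than 50% of cases. Of the 82 nearest peaks on either side, 48 (58.5%) were highest in the line of their member, 22 of 38 for line 1, 17 of 28 for line 2 and 9 of 16 for line 3. Over all peaks, line 1 was the highest of the 3 at 31.8%, line 2 at 31.5% and line 3 at 36.8%. An excess of at least 2-fold on the log2(CPM + 1) scale was seen at 15 of the 82 flanking peaks (18.3%), against 2.00%, 1.90% and 2.97% of all peaks. The flanking peaks were weaker than the average peak, with a median of 9.11 CPM over the lines against 13.1 CPM. Among all peaks at or below that level the 2-fold shares were 2.67%, 3.42% and 6.37%, and the shares with the line highest were 24.7%, 30.5% and 44.8%. For line 3, 1 of 16 flanking peaks had a 2-fold excess (6.25%), which is close to that background.

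Flanking peaks were then split by distance. Within 50 kb, 38 of 56 flanking peaks were highest in the line of the member, and beyond 50 kb 10 of 26 were (38.5%). Both flanks were highest in the line at 13 members, 1 flank at 22 and neither at 6, and 0 members had both flanks at 2-fold or more. The largest flank values were log2 differences of 2.07 beside the line 2 peak at 175696938 on chromosome 1, 35189 bp away, and 2.03 beside a line 1 peak on chromosome 8 that starts at 46722824. The lowest was -2.55, to the left of the line 2 peak at 11481878 on chromosome 15.

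**Figure D4:**
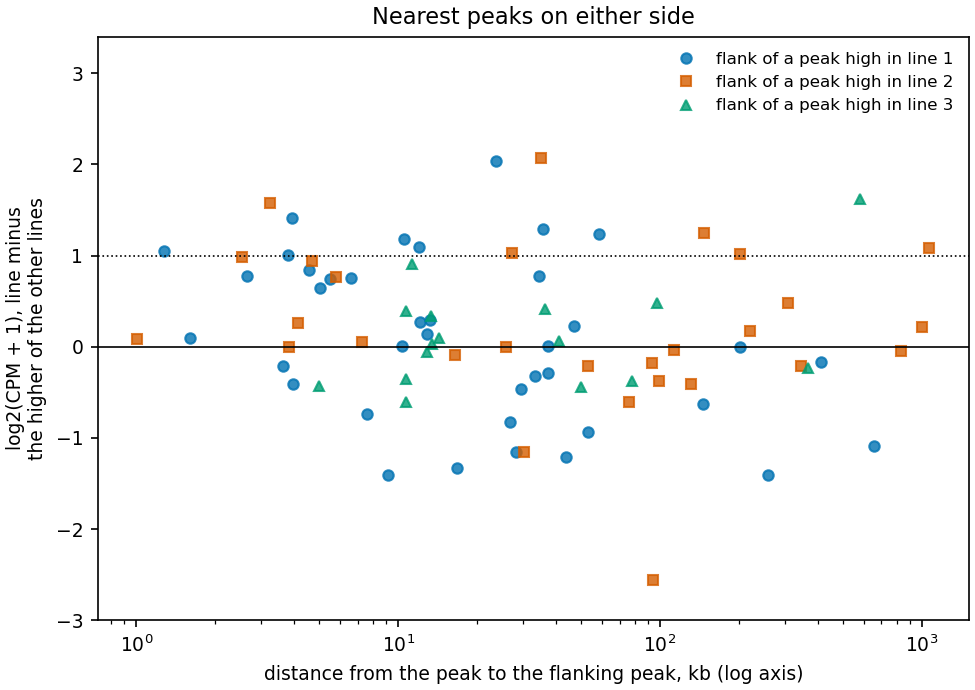
Difference in log2(CPM + 1) between the line of a member and the higher of the other lines, for the nearest peak on each side (82 points), against its distance from the member in kb on a log axis. Most points within 50 kb lie above the solid line at 0, and 15 of all points lie at or above the dotted line at 1, which marks a 2-fold excess.

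The closest group of members lay on chromosome 9 between 23260582 and 23499691, a stretch of 239 kb with 3 peaks of line 2. It was picked after the positions were seen. The peak from 23260582 to 23261931 had 21.9 CPM in line 2, 2.504 in line 1 and 3.90 in line 3, and naive organoids had 12.7, 14.2 and 18.3 CPM. Its naive mean was 15.05 ± 2.91 CPM (SD, n = 3), 68.7% of line 2. The peak from 23343364 to 23344228 had 36.0, 7.79 and 4.87 CPM in lines 2, 1 and 3 and 16.9, 10.2 and 10.2 CPM in naive organoids. The peak from 23498895 to 23499691 had 15.7, 2.23 and 1.95 CPM in the same order and 5.06, 6.51 and 5.96 CPM in naive organoids. At all 3 the naive libraries lay below line 2 and above lines 1 and 3.

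Between the outer members the stretch held 6 other peaks, and 5 of these were highest in line 2, 4 by at least 2-fold. Their summed signal was 63.1 CPM in line 2, 13.1 in line 1 and 22.9 in line 3, and 34.6, 18.7 and 25.1 CPM in naive replicates 1, 2 and 3. Line 2 was above every naive library, line 1 was below every one, and line 3 lay within the naive range. Outside the stretch, up to 500 kb from its middle, lay 5 peaks, 4 of them highest in line 2 and none by 2-fold. Their summed signal was 59.0 CPM in line 2 and 31.4 and 35.1 CPM in lines 1 and 3. Naive replicates 1, 2 and 3 had 52.3, 39.1 and 51.5 CPM, all above lines 1 and 3 and below line 2. A single peak, starting at 23023992, gave 41.7 CPM of the line 2 sum. The 10 Mb around the stretch had medians of -0.15 to -0.16, 0.12 to 0.13 and -0.06 to -0.07 in lines 1, 2 and 3. Without the flanks of these 3 members, 56.6% of the flanking peaks of all members were highest in the line of their member, against 58.5% with them.

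**Figure D5:**
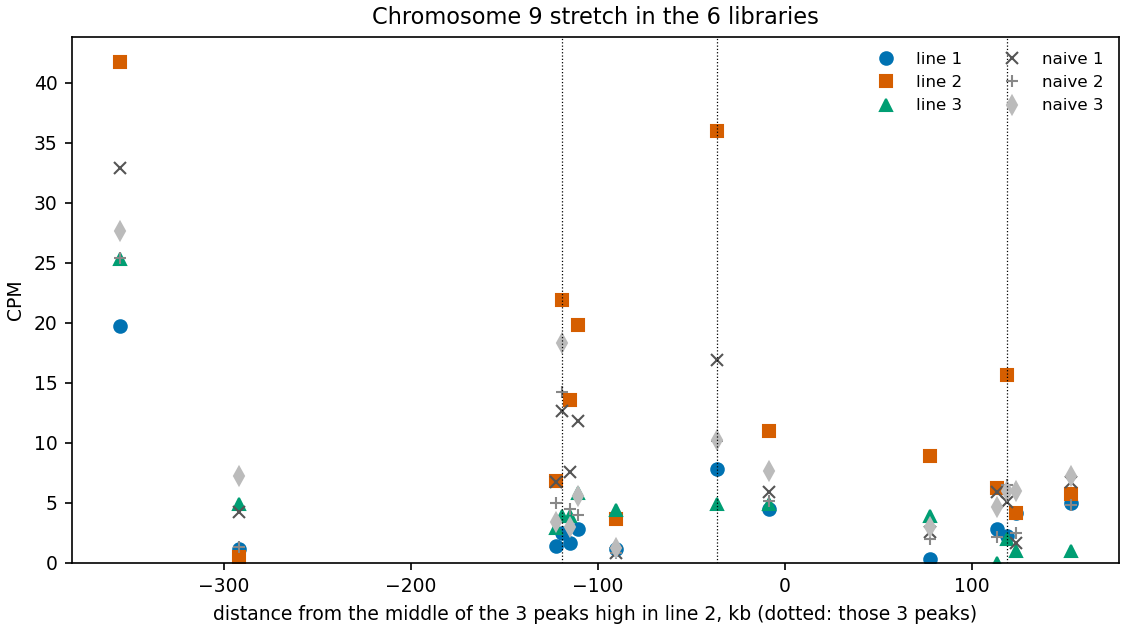
CPM of each peak within 500 kb of the middle of the chromosome 9 stretch in the 3 lines and the 3 naive libraries, against distance in kb, with dotted lines at the 3 members. Line 2 is highest at the members, with 21.9, 36.0 and 15.7 CPM, and naive libraries lie between it and the other lines.

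By their medians, the members were narrower than all peaks and had a lower score. The median width was 537 bp (290 to 1354 bp), against 746 bp for all peaks and 929 bp for peaks of at least 10 CPM in a line. By line it was 597, 633 and 463 bp for lines 1, 2 and 3. The authors' score, which no source used here defines, had a median of 16.1 at the members and 21.8 at all peaks. The median CPM of the highest line was 18.9 at the members and 17.2 at all peaks. It was 26.1 at peaks of at least 10 CPM in a line. The peak set is common to all libraries and the rule holds 2 lines low. The gaps in width and score are therefore a description and were not tested. The median distance to the nearest peak of any kind was 10.7 kb, against 7.33 kb for all peaks. Line 2 accounted for most isolated members, with 5 of its 14 more than 50 kb from any other peak (35.7%, against 9.54% of all peaks), while line 1 had 0 of 19 and line 3 had 1 of 8.

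The limits of the rule cut through a continuous range. Just inside the limit of 4 times were the chromosome 10 peak of line 1 (4.002) and the peak at 37015510 on chromosome 9 (4.02). Just outside were a peak of line 3 on chromosome 9 from 15291576 to 15292204, with 15.1 CPM against 2.78 in the next line (3.99), and a peak of line 1 on chromosome 11 from 87269135 to 87269598, with 19.5 against 3.90 CPM (3.98). Just inside the level of 10 CPM were a peak of line 3 on chromosome 14 from 118952115 to 118952506 with 10.2 CPM and the line 2 peak at 11481878 on chromosome 15 with 10.4 CPM. Just outside it were peaks with 9.25 CPM in line 3 on chromosome 14 from 76392146 to 76392527 and with 8.87 CPM in line 2 on chromosome 10 from 12755079 to 12755403. In all, 21 peaks met the ratio but not the level.

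The strongest peaks of the mirrored rule show the reverse pattern. On chromosome 15 from 93540943 to 93542246, line 1 had 13.1 CPM, lines 2 and 3 had 93.9 and 66.2, and naive organoids had 44.7, 37.4 and 33.6 CPM, between them. On chromosome 3 from 130716925 to 130717916 the lines had 8.62, 84.0 and 53.1 CPM and naive organoids 35.4, 13.0 and 10.6 CPM. Line 2 was low on chromosome 13 from 98212837 to 98214287, with 4.17 CPM against 38.7 and 24.8 in lines 1 and 3 and 6.75, 4.51 and 8.93 in naive organoids, and from 104822146 to 104822779, with 4.17 against 21.1 and 21.4 and 20.2, 17.5 and 13.6 in naive organoids. Line 3 was low on chromosome 14 from 46252477 to 46254157 (4.38 CPM against 22.0 and 26.1) and on chromosome 2 from 173244771 to 173246152 (2.92 against 19.8 and 45.9). The median naive mean over the 98 peaks was 9.44 CPM, above the 4.49 CPM of the 41 peaks high in 1 line alone. The rules ask for different levels in the lines, so this gap was not tested.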

How the data were processed

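The authors deposited 1 table of raw read counts per peak for 6 libraries, on 1 common peak set, going by the row names. MACS2, Bowtie, bedtools, SAMtools and Picard are named in the submitters' processing notes, unversioned, next to the build mm9. Transposase shifts and duplicate removal, which can alter counts, are stated in no source used here. Starts and ends are printed as deposited.

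CPM was taken over column totals, without TMM, as the rule for the members states. The fit across 36179 peaks used R 4.3.3 and edgeR 4.0.16 (filterByExpr, TMM, robust quasi-likelihood F test, 2-sided, group as the sole term, Benjamini-Hochberg adjustment), with DESeq2 1.42.0 as an alternative. The fit and the rule were tested on simulated data. With 3 libraries a group, p-values measure the spread between these libraries, which may be technical. The members and lists were chosen with earlier results of these data known. Named peaks were, per line, the 4 largest ratios, the 2 highest naive means and, from 30 CPM, the 2 lowest naive means, with the peaks nearest to each limit and the 2 strongest of the mirrored rule. Line 3 had no peak from 30 CPM. Marker genes and motifs were not used, for want of an mm9 annotation here. Flanking peaks, the chromosome 9 stretch and thinning to naive replicate 1 were added after the data were seen.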

Additional observations from a re-analysis of the deposited data

How the results depend on the processing

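The number of peaks high in 1 line alone, 41, was 43 with TMM scaling (36 shared) and 43 after division by chromosome medians (37 shared). It was 19 from 20 CPM, 0 at 8 times, 181 at 3 times, 9 with 2 CPM added, and 97 with all libraries thinned to naive replicate 1 (25 shared). With 1 tumour-derived library left out and the rule applied to the other pair it was 147 to 478, because fewer lines then have to be low. The naive median of 4.49 CPM was 6.75 CPM with the highest naive library in place of the mean, when 13 peaks in place of 8 had naive at 50% or more of the line. With limits of an eighth of the line and 25%, 12 were at most the lower limit and 20 at least the higher. Without 1 naive library the number at 50% or more was 4 to 8. A gap of 200 kb gave 1 run of members in place of 0. Peaks called in primary tumour against naive, 5210, were 2215 to 5440 without 1 library, lowest without naive replicate 2. Members called, 3 of 24 tested, were 8 with no filter, when all 41 were tested and 5245 peaks were called in all. Without 1 library they were 0 to 6, of 28 to 32 members tested. The share of all tested peaks called in those fits is not given here, so nothing is read from these numbers. Adding a replicate block gave 3539 called peaks of 36179 tested, and 2 called members of 24 tested. Libraries with the same number deviated with correlations of -0.24, -0.11 and 0.01, so the numbers were not taken to pair the libraries. Depth limits single values, since members of line 2 rest on 20 to 69 reads and those of line 3 on 21 to 31.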
